A study of Mus musculus with 6 samples.

Results

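Embryonic globins and other red cell genes were followed through the 2 compartments of the mouse embryonic bladder. The set was defined by name, as the probe sets whose only annotated gene symbol is Hbb-bh1, Hbb-y, Hba-x, Alas2, Epb42, Slc4a1, Klf1 or Ahsp. Of these 8 genes 7 had such a probe set, 14 probe sets in all, among 18193 genes measured by 34945 probe sets with a single symbol. Ahsp was not analysed here. Hbb-bh1, Hbb-y and Slc4a1 had 3 probe sets each, Epb42 had 2, and Hba-x, Alas2 and Klf1 had 1.

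The tissue came from wild-type FVB/N embryos of unknown sex at embryonic day 13 (Theiler stage 21). Both compartments were exposed to 20 µM EDTA for 20 minutes, which loosens epithelium from the tissue around it, and were then parted with a needle. The mesenchyme was profiled on 3 arrays (replicates 1, 2 and 4 of the labels), and the urothelium, the epithelial compartment, on 3 arrays (replicates 5, 7 and 8), after 2 rounds of RNA amplification. The samples were not pooled, per the labels, but nothing says that they came from separate embryos, so p-values measure the spread between these arrays, which may be technical.

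Red cells of the embryo arise in waves. Primitive erythroblasts from the yolk sac enter the circulation while still nucleated and make embryonic globins, and definitive red cells from the fetal liver, which make adult globins, join them later. Mouse embryonic haemoglobin pairs the zeta chain, encoded by Hba-x, or adult alpha chains with the beta-like chains encoded by Hbb-y (epsilon-y) and Hbb-bh1 (beta-h1). The bladder makes no red cells, and those found in it come with the blood. In bulk RNA such as this, fewer red cells and less RNA in each red cell cannot be told apart.

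Red cell genes are classically controlled through GATA motifs, bound by GATA1, and CACCC boxes, bound by KLF1. The windows from 250 bases before to 50 bases after the annotated start are shown for Hbb-y, Hba-x and Alas2, each of which had a probe set without overlap between the compartments. They are RefSeq sequences of GRCm38.p6, at chr7:103853158-103853457 (minus strand), chr11:32276350-32276649 (plus strand) and chrX:150547167-150547466 (plus strand), read along the gene. Capitals mark the GATA motif and the CACCC box on either strand.
Hbb-y: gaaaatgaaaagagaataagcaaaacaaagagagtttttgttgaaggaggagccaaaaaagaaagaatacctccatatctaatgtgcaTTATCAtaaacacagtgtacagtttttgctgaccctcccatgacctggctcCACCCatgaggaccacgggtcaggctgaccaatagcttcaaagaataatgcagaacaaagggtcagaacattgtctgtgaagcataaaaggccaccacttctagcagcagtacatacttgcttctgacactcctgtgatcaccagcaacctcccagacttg
Hba-x: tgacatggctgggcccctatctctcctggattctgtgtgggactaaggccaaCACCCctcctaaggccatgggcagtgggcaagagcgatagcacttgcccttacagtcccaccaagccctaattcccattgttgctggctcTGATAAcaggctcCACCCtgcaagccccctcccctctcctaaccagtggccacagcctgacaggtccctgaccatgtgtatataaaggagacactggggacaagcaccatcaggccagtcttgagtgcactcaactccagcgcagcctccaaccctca
Alas2: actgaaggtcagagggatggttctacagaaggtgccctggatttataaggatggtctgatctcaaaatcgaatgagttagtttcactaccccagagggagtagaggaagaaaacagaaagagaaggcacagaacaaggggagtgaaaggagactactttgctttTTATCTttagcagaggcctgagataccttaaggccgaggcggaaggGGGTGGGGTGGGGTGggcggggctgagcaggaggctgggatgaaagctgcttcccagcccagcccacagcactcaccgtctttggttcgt

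The GATA motif was searched on both strands as AGATAA or TGATAA, and the matches of either form were counted together. Hbb-y, Hba-x and Klf1 held the form TGATAA, and Alas2 and Epb42 the form AGATAA. The motif began 162 bases before the start of Hbb-y, 108 before that of Hba-x and 86 before that of Alas2. The box, searched as CACCC on both strands, stood 111 bases before the start of Hbb-y, and at 198 and 95 bases before that of Hba-x. Alas2 had 3 of them on the opposite strand, at 40, 35 and 30 bases. The Hba-x pair of a GATA motif and a CACCC box lies 13 bases apart from first base to first base. Windows were also available for Klf1 and Epb42; Hbb-bh1 and Slc4a1 were not among those matched. All 5 matched members held a GATA motif, against 18.6% of the 32851 promoter windows of the same length. A CACCC box stood in 4 of the 5, all but Epb42, against 57.5% of windows, and both motifs together in 4 of 5, against 8.96%. The CCAAT box, searched likewise on both strands and not marked above, stood in 2 of the 5, against 37.4% of windows. These are matches of letters and not observed binding.

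The embryonic globin genes Hbb-bh1 and Hba-x, the erythroid haem enzyme and band 3 were higher in the mesenchyme of the bladder; the embryonic globin gene Hbb-y was so by 1 of its 3 probe sets. In the comparison of one probe set per gene, 4 of the 7 genes were higher in mesenchyme (Hbb-bh1, Hba-x, Alas2 and Slc4a1) and 0 were higher in urothelium, at a limma adjusted p under 0.05; 0 were higher in urothelium at an unadjusted p under 0.05 either. Mean signals of the 4 genes were 3.003 to 4.03 times as high in mesenchyme, and the urothelial means were 24.8% to 33.3% of the mesenchymal ones. In 4 of the 7 genes, the same 4, all mesenchyme arrays were above all urothelium arrays, which held for 18.2% of all genes. Both counts rest on the same arrays, so the second is no further support. Among all 18193 genes 8.99% were higher in mesenchyme and 5.75% in urothelium. The median log2 difference, mesenchyme minus urothelium, was 1.46 over the 7 genes and 0.11 over all genes, and 1.35 relative to the median gene. Differences and adjusted p-values come from limma on log2(signal + 45), a scale that makes the changes of dim genes look smaller, with the Benjamini-Hochberg method over all genes or, where a further probe set is described, over all 45037 probe sets.

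**Figure D1:**
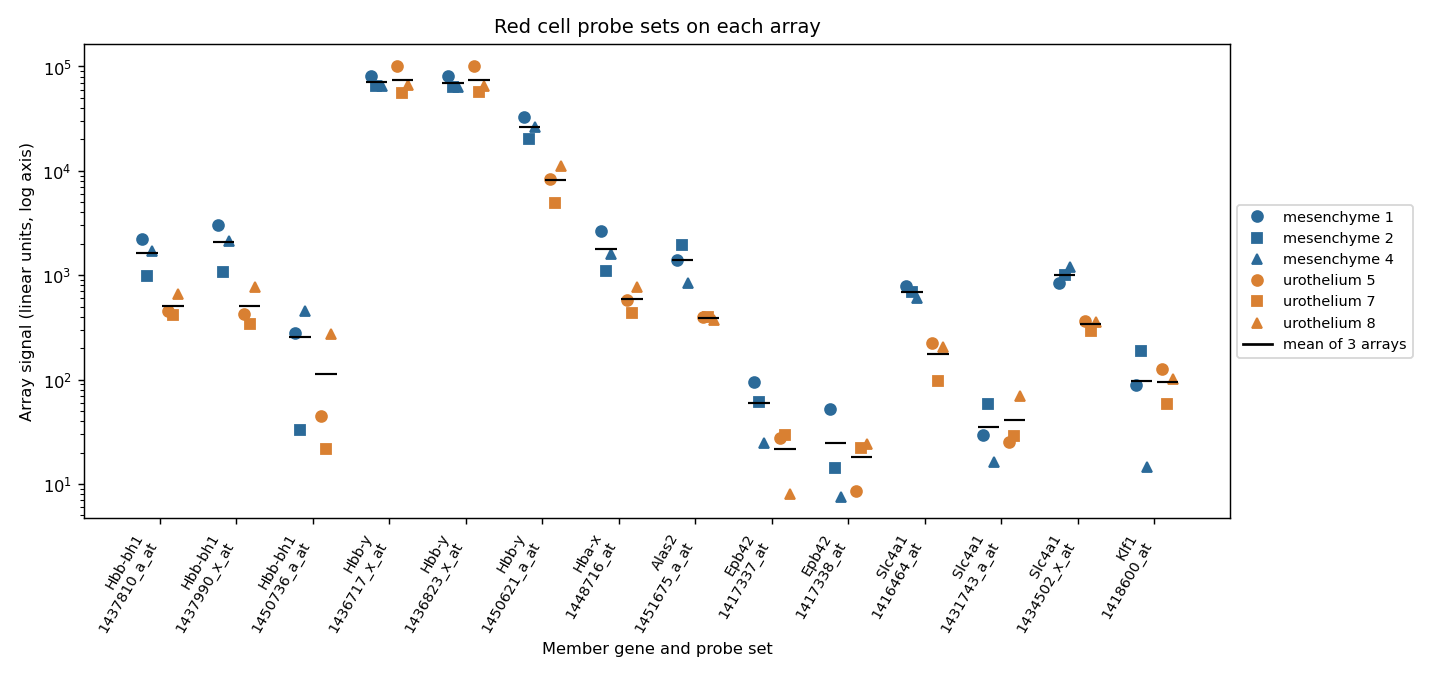
Signal of each of the 14 probe sets on every array (log axis), with mesenchyme in blue and urothelium in orange, one marker shape per array, and a bar at the mean of 3 arrays. In 7 probe sets every mesenchyme array lies above every urothelium array; the brightest 2, both of Hbb-y, do not separate the compartments.

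Hbb-bh1, the beta-h1 globin gene, had signals of 3004, 1071 and 2111 on mesenchyme 1, 2 and 4, against 427.2, 344.4 and 763.2 on urothelium 5, 7 and 8 (probe set 1437990_x_at). All mesenchyme arrays were above all urothelium arrays. The log2 difference was 1.87 ± 0.45 (SE; limma adjusted p = 0.0173), and the urothelial mean was 24.8% of the mesenchymal mean. Its probe set 1437810_a_at gave 2209, 980.9 and 1706 in mesenchyme, against 454.4, 417.1 and 663.1 in urothelium, again without overlap (log2 difference 1.54 ± 0.39, limma adjusted p = 0.0363). The third, dimmer probe set (1450736_a_at) was uneven within both compartments. It read 280.6, 32.7 and 453.4 in mesenchyme and 45.3, 21.6 and 275.0 in urothelium, and its difference of 0.90 ± 0.78 did not pass (limma adjusted p = 0.643).

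Hba-x, which encodes the embryonic alpha-like zeta chain, followed the same course. Its single probe set read 2661, 1104 and 1613 in mesenchyme, against 577.7, 430.6 and 776.4 in urothelium. The groups did not overlap, and the lowest mesenchyme array, mesenchyme 2, stood closest to urothelium 8. The log2 difference was 1.47 ± 0.41 (limma adjusted p = 0.0344 over genes), but the same values did not pass when the test was adjusted over all probe sets (limma adjusted p = 0.0518) or after quantile normalization (limma adjusted p = 0.0768).

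Hbb-y, the epsilon-y globin gene, gave different pictures in its probe sets. Probe set 1450621_a_at read 32716, 20123 and 26574 in mesenchyme, against 8443, 4891 and 11173 in urothelium, with no overlap. Its log2 difference was 1.74 ± 0.34 (limma adjusted p = 0.00934), the smallest adjusted p of the 14 probe sets, and the urothelial mean was 30.9% of the mesenchymal one.

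The other Hbb-y probe sets were much brighter and showed no such difference. Both are of the kind whose _x_ suffix marks probes shared with other transcripts in the array maker's naming. The probe sets that stood for Hbb-bh1 (1437990_x_at) and Slc4a1 (1434502_x_at) are also of this kind. Each of those genes passed as well by a probe set without the suffix (1437810_a_at and 1416464_at). Hbb-y probe set 1436717_x_at read 80879, 65117 and 64684 in mesenchyme, against 102013, 55560 and 66120 in urothelium. Probe set 1436823_x_at read 81533, 64096 and 63104 in mesenchyme, against 100256, 56414 and 64953 in urothelium. The compartments overlapped fully in both, with urothelium 5 the highest array and urothelium 7 the lowest. Their log2 differences were −0.05 ± 0.30 and −0.05 ± 0.30 (limma adjusted p = 0.964 and 0.960). Their mean signals were above those of 99.9% of all probe sets. The highest signal of any probe set on an array was 147345, 86112 and 83240 in mesenchyme, and 156866, 106331 and 88371 in urothelium; whether the bright Hbb-y probe sets were near saturation was not tested. Hbb-y was represented by 1436717_x_at in the comparison of genes, because it is the brightest; with the brightest probe set not of the _x_ kind, an alternative chosen after the values were seen, Hbb-y was higher in mesenchyme (log2 difference 1.74, limma adjusted p = 0.00439) and the count of members was 5 of 7.

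**Figure D2:**
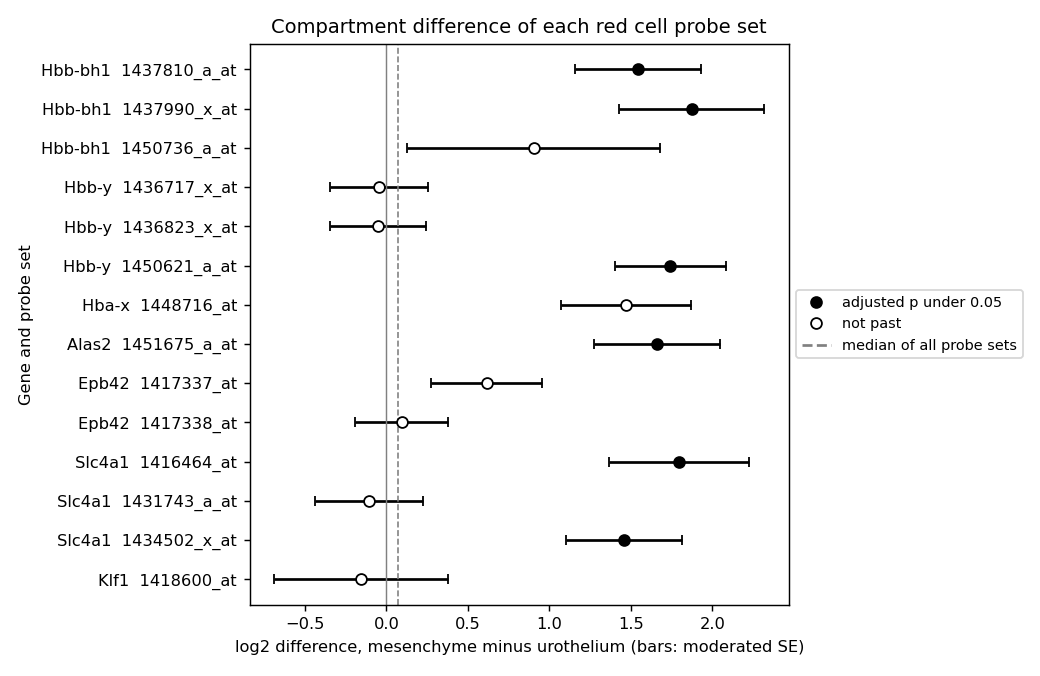
Log2 difference (mesenchyme minus urothelium) of each probe set with its moderated standard error; filled points have a limma adjusted p under 0.05 over all probe sets, and the dashed line is the median of all probe sets (0.07). Hbb-bh1, Hbb-y and Slc4a1 each have at least 1 probe set near 1.5 or above and at least 1 that did not pass.

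Alas2 encodes the erythroid form of 5-aminolevulinate synthase, the first enzyme of haem synthesis. It read 1408, 1968 and 833.8 in mesenchyme, against 402.1, 395.5 and 369.5 in urothelium. The urothelium arrays were nearly level, whereas mesenchyme 4 had less than the other mesenchyme arrays but still more than every urothelium array. The log2 difference was 1.66 ± 0.40 (limma adjusted p = 0.0169).

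Slc4a1 encodes band 3, the anion exchanger of the red cell membrane, which is also made in the kidney collecting duct. Probe set 1434502_x_at read 833.9, 1008 and 1203 in mesenchyme, against 365.8, 289.4 and 358.8 in urothelium (log2 difference 1.46 ± 0.37, limma adjusted p = 0.0212). It did not pass when arrays were centred on their medians (limma adjusted p = 0.0591). Probe set 1416464_at read 789.5, 689.7 and 610.2 in mesenchyme, against 224.7, 97.5 and 203.5 in urothelium (log2 difference 1.80 ± 0.43, limma adjusted p = 0.0278). Neither overlapped between compartments. The remaining probe set, 1431743_a_at, was dim on every array, with 29.8, 58.5 and 16.3 in mesenchyme and 25.3, 28.9 and 69.0 in urothelium, and its difference of −0.11 ± 0.33 did not pass.

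Epb42, the gene of a transglutaminase-like protein that ties band 3 to the red cell skeleton, was close to the dim end of the arrays. Probe set 1417337_at read 94.7, 61.0 and 24.8 in mesenchyme, against 27.5, 29.6 and 7.99 in urothelium (log2 difference 0.62 ± 0.34, limma adjusted p = 0.307). Its mean lay above 17.4% of probe sets, and the groups overlapped through mesenchyme 4. The other probe set ranged from 7.54 to 52.3 in mesenchyme and from 8.55 to 24.2 in urothelium. Klf1, the gene of the erythroid Krüppel-like transcription factor, read 89.2, 188.8 and 14.6 in mesenchyme, against 125.7, 58.5 and 101.2 in urothelium. Its highest and its lowest array were both mesenchyme, and its difference of −0.16 ± 0.50 did not pass (limma adjusted p = 0.9003).

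Taking the 14 probe sets singly, 6 were higher in mesenchyme and 0 in urothelium, against 4.46% and 2.88% of all 45037 probe sets. In 7 of the 14 every mesenchyme array exceeded every urothelium array, which held for 13.4% of all probe sets. Probe sets of 1 gene are annotated to the same gene, so these counts are not counts of independent genes. The calls depended on which arrays were kept. Of the 4 genes, 2 passed without mesenchyme 1, 2 without mesenchyme 2 and 1 without mesenchyme 4. Without urothelium 5, 7 and 8 the counts were 2, 0 and 4. Over all 18193 genes the number higher in mesenchyme was 1636 with all arrays. It was 1703, 1239 and 1262 without mesenchyme 1, 2 and 4, and 1317, 1150 and 1469 without urothelium 5, 7 and 8. In each fit without 1 array the log2 differences of the 4 genes lay between 1.14 and 2.27. These genes were picked because they passed, and without overlap their sign could not change when 1 array was left out. Of the members that did not pass, Klf1 (−0.62 to 0.37) and Hbb-y (−0.23 to 0.20) changed sign in those fits, and Epb42 (0.38 to 0.88) did not. At an unadjusted limma p under 0.05, 4 or 5 members were higher in mesenchyme in those fits. The share of all genes at that unadjusted threshold was not counted, so such counts stand without a background throughout.

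Of the 7 probe sets of embryonic globins, 4 shared 1 order of arrays within each compartment. In these, of Hbb-bh1 (both that passed), Hbb-y (1450621_a_at) and Hba-x, the highest mesenchyme array was replicate 1, then 4, then 2, and the highest urothelium array was replicate 8, then 5, then 7. That order, singled out after the values were seen, was shared by 2.83% of all probe sets. The third Hbb-bh1 probe set had mesenchyme replicate 4 as its highest, and both bright Hbb-y probe sets had mesenchyme replicate 4 as their lowest and urothelium replicate 5 as their highest. Alas2 did not share the order either: its highest mesenchyme array was replicate 2 and its lowest replicate 4. The Slc4a1 probe sets that passed had mesenchyme replicate 1 as their highest (1416464_at) and as their lowest (1434502_x_at). The beta-actin control probe sets at the 3' and 5' ends of the transcript gave ratios of 8.40 on mesenchyme 1 and 8.60 on urothelium 5; the remaining arrays lay between 2.29 and 4.89. A high ratio marks amplified RNA that reaches less far from the 3' end. The part of this ratio in the array order was not tested. Without both arrays, 2 of the 7 genes passed (Alas2 and Slc4a1), and the median log2 difference of the members was 1.14. Over all 18193 genes that fit gave 1755 higher in mesenchyme and 1236 in urothelium, against 1636 and 1047 with all arrays.

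**Figure D3:**
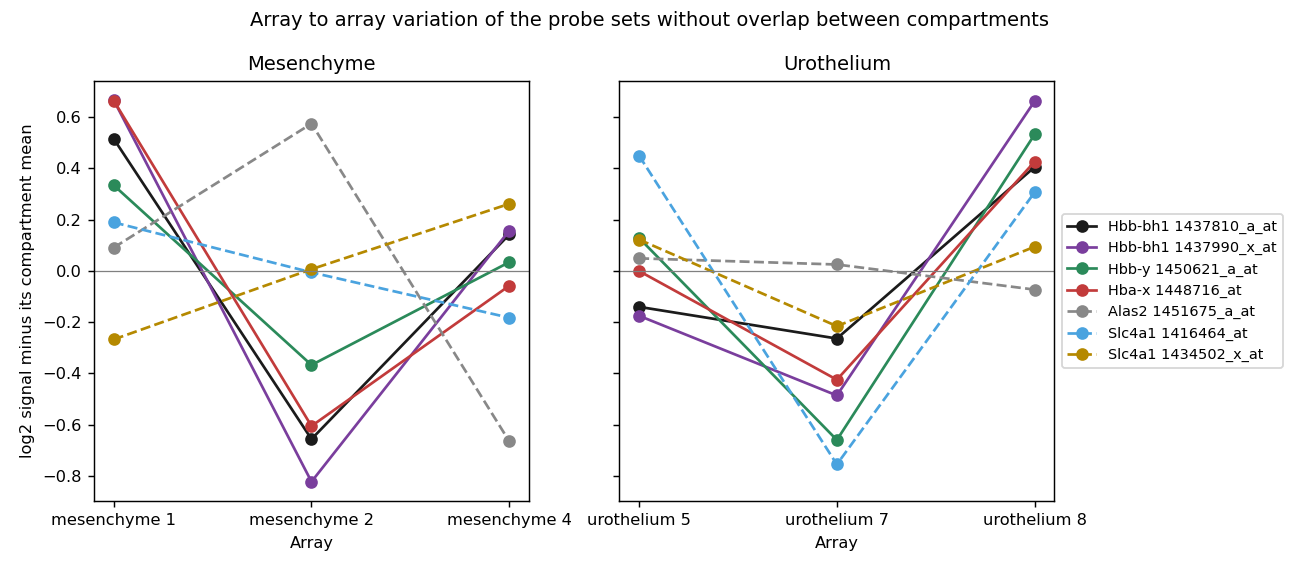
Log2 signal of each probe set without overlap between the compartments, less its own mean over the 3 arrays of that compartment, for mesenchyme (left) and urothelium (right); lines only join the arrays of 1 probe set. The solid lines of the 4 embryonic globin probe sets without overlap run together, lowest on mesenchyme 2 and urothelium 7, while those of Alas2 and Slc4a1 (dashed) take other courses.

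Adult globins were measured chiefly by probe sets that the annotation gives to several globin genes at once, which therefore name no gene. The probe set listed for 4 adult beta-like genes (1417184_s_at) read 32117, 35111 and 38800 in mesenchyme, against 9786, 17817 and 17012 in urothelium. Its log2 difference was 1.29 ± 0.30 (limma adjusted p = 0.0221). The 3 probe sets listed for both adult alpha genes had mean signals of 17623, 23619 and 19622 in mesenchyme, against 6083, 10467 and 9050 in urothelium. Their log2 differences of 1.78, 1.28 and 1.29 did not pass (limma adjusted p = 0.0802, 0.0917 and 0.257). In all 4 of these probe sets mesenchyme 1 and urothelium 5 were the lowest arrays of their compartments, unlike in the embryonic globins. Those with a single symbol were dim: Hbb-b2 averaged 648.0 ± 240.2 in mesenchyme and 461.3 ± 106.0 in urothelium (SD, n = 3 each), and Hba-a2 averaged 240.4 ± 166.6 in mesenchyme and 431.8 ± 78.0 in urothelium. Hba-a1 averaged 91.0 ± 55.4 in mesenchyme and 39.9 ± 26.5 in urothelium. None of these 3 passed limma's test, and 0 had an unadjusted p under 0.05; their median log2 difference was 0.42. Hbb-b1 had no single-symbol probe set.

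The enzymes of haem synthesis that all cells share had log2 differences from −0.99 to 1.00. Of 7 measured, 1 was higher in mesenchyme and 0 in urothelium by limma (2 had an unadjusted p under 0.05), with a median log2 difference of 0.10. Urod, uroporphyrinogen decarboxylase, was the one that passed, with 24893 ± 664 in mesenchyme and 12486 ± 1849 in urothelium (log2 difference 1.00 ± 0.24, limma adjusted p = 0.0163). Alad, which encodes the second enzyme of the pathway, averaged 9033 in mesenchyme and 11895 in urothelium and did not pass. Cpox, the gene of coproporphyrinogen oxidase, named after its values were seen, averaged 130.5 ± 47.7 in mesenchyme and 306.5 ± 103.6 in urothelium without overlap, and did not pass (−0.99 ± 0.44, limma adjusted p = 0.192).

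Iron genes moved the other way where they passed. Tfrc, the transferrin receptor gene, averaged 5584 ± 1534 in mesenchyme and 43221 ± 15284 in urothelium (log2 difference −2.91 ± 0.32, limma adjusted p = 0.000115). Slc40a1, the gene of the iron exporter ferroportin, averaged 9461 ± 451 in mesenchyme and 52729 ± 13246 in urothelium (−2.45 ± 0.26, limma adjusted p = 8.89e-05). These were the 2 of 9 iron genes that passed. By limma 0 of the 9 were higher in mesenchyme, and 3 differed in either direction at an unadjusted p under 0.05; the median log2 difference was 0.21. Both genes are active in many cell types besides red cells.

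Other genes of the red cell membrane and its skeleton gave 3 higher in mesenchyme and 1 in urothelium among 15 measured, with a median of 0.21. Gypc, the glycophorin C gene, differed by 4.01 ± 0.34, the water channel gene Aqp1 by 2.53 ± 0.46 and the adducin gene Add2 by 2.19 ± 0.57 (limma adjusted p = 2.36e-05, 0.00341 and 0.0252). Gypc and Aqp1 are also made by endothelial and other cells.

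Among 13 transcription factors and partners of the erythroid programme, 3 were higher in mesenchyme and 1 in urothelium (median 0.30). Lmo2 differed by 3.46 ± 0.38, Ikzf1 by 2.85 ± 0.50 and Tal1 by 2.43 ± 0.52 (limma adjusted p = 0.000104, 0.00266 and 0.00922). Lmo2 and Tal1 act in endothelium as well as in blood, and Ikzf1 in lymphoid and other blood cells. Gata1, the master regulator of red cells, read 324.3, 147.4 and 210.7 in mesenchyme, against 93.4, 123.2 and 52.5 in urothelium. The groups did not overlap, but the difference of 1.00 ± 0.43 did not pass (limma adjusted p = 0.1696).

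The remaining red cell lineage genes split evenly, with 2 of 13 higher in each compartment and a median of 0.09. Blvrb, the gene of biliverdin reductase B, differed by 2.66 ± 0.48 and Tent5c by 1.53 ± 0.35 (limma adjusted p = 0.00312 and 0.0136). Car2, the gene of carbonic anhydrase 2, a red cell enzyme also made in many epithelia, averaged 3112 ± 386 in mesenchyme and 53358 ± 9747 in urothelium (−4.07 ± 0.26, limma adjusted p = 4.28e-06). Epor, the erythropoietin receptor gene, averaged 384.2 ± 62.2 in mesenchyme and 150.6 ± 77.1 in urothelium and did not pass (1.22 ± 0.46, limma adjusted p = 0.116). Over the 6 companion groups together, 9 of 60 genes were higher in mesenchyme and 6 in urothelium, with a median of 0.21. Among all 18193 genes the shares were 8.99% and 5.75%, which are the background for each single list as well.

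**Figure D4:**
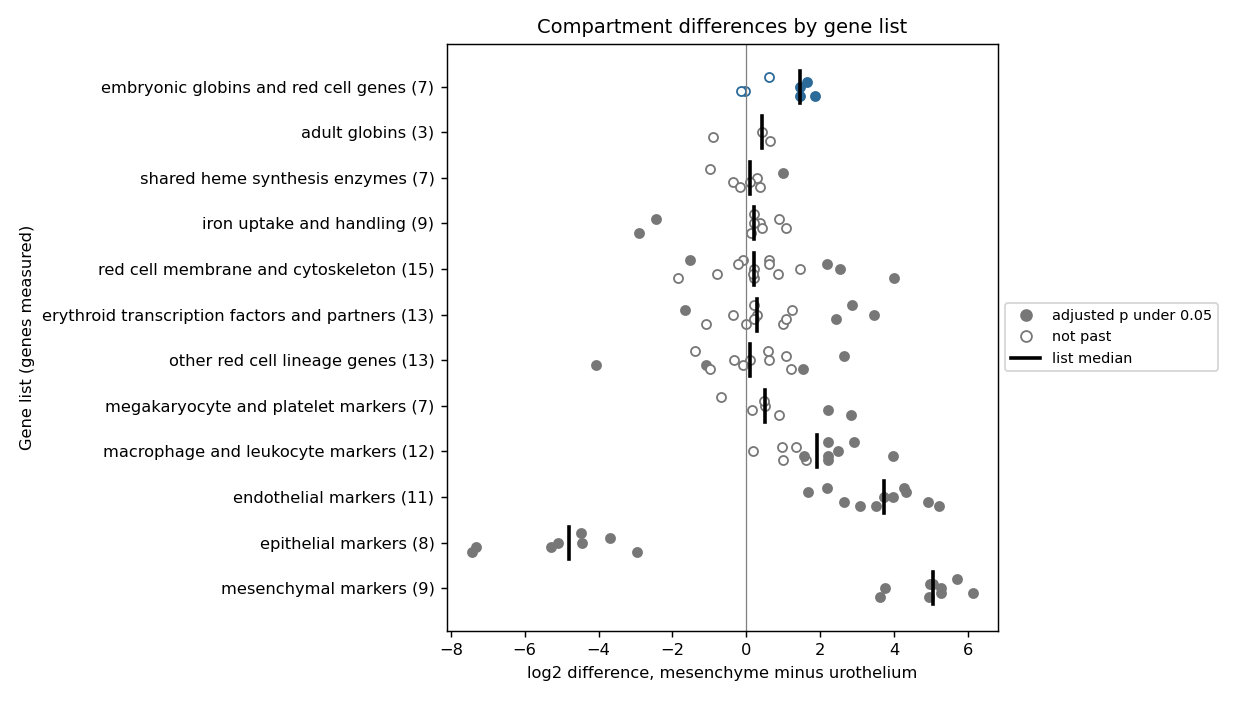
Log2 difference (mesenchyme minus urothelium) of every measured gene by list, filled where the limma adjusted p was under 0.05, with a bar at the list median. The embryonic globins and red cell genes (blue) centre on 1.46. That is between the companion red cell lists (medians of 0.09 to 0.42) and the endothelial (3.74) and mesenchymal (5.07) markers. The macrophage and leukocyte markers (1.91) and the megakaryocyte and platelet markers (0.50) also lay in that span. The brighter adult globin probe sets that carry several symbols, not drawn here, had log2 differences of 1.28 to 1.78.

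The labels of the compartments were checked against markers. All 9 mesenchymal markers were higher in mesenchyme and all 8 epithelial markers in urothelium. Endothelial markers, which trace the vessel wall, were higher in mesenchyme for 11 of 11, with a median log2 difference of 3.74. Cdh5, the VE-cadherin gene, averaged 5271 ± 798 in mesenchyme and 140.8 ± 78.3 in urothelium, and Sox17, an endothelial transcription factor gene, 5485 ± 445 in mesenchyme and 118.0 ± 86.5 in urothelium. The urothelial signal of the endothelial markers was 5.87% of the mesenchymal signal at the median (2.15% to 27.0%), and that of the mesenchymal markers 2.67% (1.12% to 7.26%). For the 7 red cell genes the median share was 33.3%. The difference between these shares was not tested. The summed endothelial signal ranged from 25795 to 29633 in mesenchyme and from 1324 to 1954 in urothelium. No marker was listed at 0 on any array.

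Markers of other blood cells were also measured. Of 12 macrophage and leukocyte markers 7 were higher in mesenchyme and 0 in urothelium (10 had an unadjusted p under 0.05). In 10, not all of them the same genes, every mesenchyme array was above every urothelium array, against 18.2% of all genes. The list had a median log2 difference of 1.91 and a median urothelial share of 16.9%. Csf1r, the receptor gene of macrophages, averaged 4915 ± 1003 in mesenchyme and 274.1 ± 74.5 in urothelium. Mrc1, another macrophage gene, averaged 4685 in mesenchyme and 582.6 in urothelium. The summed signal of this list ranged from 11404 to 15687 in mesenchyme and from 1778 to 1987 in urothelium. Of 7 megakaryocyte and platelet markers 2 were higher in mesenchyme and 0 in urothelium (3 had an unadjusted p under 0.05), with a median of 0.50. The platelet chemokine gene Pf4, which macrophages of the embryo also make, averaged 2244 ± 928 in mesenchyme and 279.0 ± 155.8 in urothelium. Itga2b, the platelet integrin gene, averaged 982.2 in mesenchyme and 500.5 in urothelium and did not pass. Gp6, the platelet collagen receptor gene, named after its values were seen, averaged 63.5 in mesenchyme and 128.8 in urothelium, with all urothelium arrays above all mesenchyme arrays, and did not pass (−0.68 ± 0.38, limma adjusted p = 0.312). The median urothelial share of these 7 markers was 67.7%. The summed signal of these markers ranged from 3776 to 6220 in mesenchyme and from 1228 to 1990 in urothelium. The part of these cells in the red cell values was not tested.

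Genes outside the lists whose signal followed the mean profile of the 7 red cell genes most closely over the 6 arrays were Nxf2, Gbp8, Sh2d3c, Cdkn1c, Scd1, Ap1m1, Pros1, Mxd1, St3gal4 and Oaz2. Pearson's r lay between 0.988 and 0.999 among 4696 genes whose log2 range was at least 2. The points fall into 2 compartments that differ in many genes, and these values are a description. Nxf2 read 482.5, 351.2 and 211.2 in mesenchyme, against 84.0, 41.5 and 80.8 in urothelium.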

How the data were processed

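Total RNA of 3 mesenchyme and 3 urothelium samples was amplified, labelled with biotin and hybridised to Affymetrix MOE430 arrays, per the labels' protocols. The table the authors deposited holds linear array intensity, 1 value per probe set. Per the submitters' processing notes GCOS was used; no source used here gives its algorithm. The mean of every array, with 2% trimmed from each end, was 1500, so no further scaling was applied; such scaling would hide a difference in total RNA, and background compresses the differences of dim probe sets. No detection calls were used, and the number of arrays limits the precision. Of 45101 probe sets 64 were controls, 932 had several symbols and 9160 none, and none of these was used to name a gene. Entrez identifiers matched a RefSeq table for 34741 probe sets and changed 0 symbols.

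The brightest probe set by mean stood for each gene. Signals plus 45 (the 25th percentile) were taken to log2 and fitted with the compartment as factor in limma 3.58.1 (R 4.3.3; lmFit, eBayes with trend), with Benjamini-Hochberg adjustment over 18193 genes, and likewise over 45037 probe sets; the fit was tested on simulated data, where the share of large changes it recovered was below the one first required; the requirement was then lowered and the fit kept as it was. Changes of the size seen in the members were often missed there, which limits what a gene that did not pass can show. Members, lists and tests were chosen with earlier results of these data known. The text names all members, up to 3 genes per companion list that passed with the largest difference (or the 2 brightest where fewer than 2 passed), Gata1, Tal1, Hba-a1, Hbb-b1, Epor and Tfrc (a further gene is not reported here), the 2 brightest markers of each list, and the 10 genes most like the members. No batch or date was given. Alternatives were other pseudocounts, scalings, filters and probe set rules, and fits without 1 or 2 arrays. Promoter windows are RefSeq sequences.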

Additional observations from a re-analysis of the deposited data

How the results depend on the processing

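No paired analysis was possible because the compartments share no replicate number. No member passed as higher in urothelium (limma adjusted p under 0.05) under any setting, though Klf1 and Hbb-y had negative differences in several. The log2 differences of Hbb-bh1, Hba-x, Alas2 and Slc4a1 ranged from 1.05 to 2.27 over all settings and their limma adjusted p from 0.000721 to 0.148. Of the 7 members, 4 passed as higher in mesenchyme, against 1636 of all 18193 genes. With quantile normalization 3 passed (Hba-x lost, limma adjusted p = 0.0768), against 1525 of all genes. Arrays centred on their medians also gave 3 (Slc4a1 lost, limma adjusted p = 0.0591), against 1332. With a gene's probe sets averaged 2 passed, against 1547, and without mesenchyme 1 and urothelium 5 also 2, against 1755. Leaving out 1 array gave 0 (without urothelium 7, against 1150 of all genes) to 4 (without urothelium 8, against 1469). The median of the members, 1.46, became 1.199 with a pseudocount of 179 and 1.05 with probe sets averaged. It was 1.14 without mesenchyme 1 and urothelium 5, and 1.14 to 1.501 without 1 array. Arrays centred on their medians put the median gene at −0.08 and the members 1.35 above it. Among the 14 probe sets, 6 passed, but 1 after quantile normalization or without mesenchyme 1 and urothelium 5, and 0 (without urothelium 7) to 4 without 1 array. How many of all probe sets passed in those settings was not counted. The median of the 14, 1.18, became 1.48 with a pseudocount of 1, 0.86 with 179 and 1.54 for probe sets above the median signal. It was 0.80 without mesenchyme 1 and urothelium 5, and 0.90 to 1.54 without 1 array. Of the companion genes 4 of the 29 left were higher in mesenchyme when dim genes were left out, against 9 of 60, and 10 of 60 in urothelium with array weights, against 6 of 60; array weights also gave 2074 of all 18193 genes higher in urothelium, against 1047. Without 1 array the counts were 6 to 9 and 3 to 5. Differences that did not pass changed sign in several settings. Hbb-y by 1436717_x_at (−0.05) became 0.18 with quantile normalization, 0.10 with array weights, 0.55 with its probe sets averaged, 0.099 without mesenchyme 1 and urothelium 5, and −0.23 to 0.20 without 1 array; by the probe set not of the _x_ kind it was 1.74 and passed. The other such Hbb-y probe set (1436823_x_at) became 0.16, 0.030 and 0.071 with quantile normalization, array weights and without both arrays, and −0.22 to 0.19 without 1 array. Klf1 became 0.051 with array weights and −0.62 to 0.37 without 1 array. The dimmer Epb42 probe set (0.09) became −0.092 with median centring, −0.17 with array weights, −0.29 without both arrays and −0.17 to 0.27 without 1 array, and the dim Slc4a1 probe set (−0.11) −0.31 to 0.11 without 1 array. The cause was not tested. Klf1 and Epb42 fall out of the filter on dim genes, and their low signal over background limits what can be said of them.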
